A study of Mus musculus with 18 samples.

Results

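Centre Lgr5+ cells are the cells at the base of the intestinal crypt that carry the highest level of GFP in Lgr5eGFP-Ires-CreERT2 mice, in which the *Lgr5* locus drives GFP and an inducible Cre. The comparison described here sets the 3 libraries of centre cells from the small intestine (SI) against the 3 from the large intestine (LI), chosen by their sample labels, out of 18 libraries in 6 groups. The other 12 libraries hold border cells with medium GFP and cells beyond row 3 with low GFP, and entered the same statistical fit. All mice were untreated, carried the same knock-in allele on a C57BL/6 background by the labels, and were 8 to 20 weeks old. Cells were dissociated from isolated crypts, sorted as living EPCAM-positive cells, and their RNA was sequenced. The published methods name distal ileum and cecum for crypts isolated for staining, but give no segment for these sorted cells. The mouse behind a replicate number is not named in the sources used here, so p-values measure only the spread between these libraries.

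Both sites renew their epithelium from cycling Lgr5+ cells at the crypt base, which depend on Wnt signals. In the SI these cells sit between Paneth cells, secretory cells that release defensins and lysozyme, and their descendants include enterocytes that take up fat, sterols, sugars and peptides. The LI has no villi and normally no Paneth cells, its crypt base holds secretory cells of the goblet lineage, and its surface cells mainly absorb water and ions. The regional identity of the gut is known to rest on transcription factors such as GATA4 in the SI and the Hox genes in the LI.

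Counts per library were 22176729, 20453305 and 23779122 in SI centre and 15689209, 26509262 and 23306352 in LI centre replicates 1 to 3. Levels below are in CPM, counts scaled to a common library size after TMM scaling, given for replicates 1, 2 and 3 in that order, and a fold change is SI over LI. The epithelial marker *Epcam* had 738, 760 and 823 CPM in the SI and 873, 1001 and 1114 CPM in the LI. Of 15 immune genes tested 2 reached a mean of 1 CPM in either site, and of 16 stromal genes 2 did. The immune genes summed to between 16.9 and 23.7 CPM in SI and between 7.93 and 17.3 CPM in LI libraries. The Y-linked genes had 1818 and 2372 counts in both libraries numbered 2 and at most 1 count in the other centre libraries, so this difference is balanced between the sites.

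SI centre replicate 3 stood apart from the other SI centre libraries and lay between the sites. Across 47 genes that reached 20 CPM or more in every LI centre library and exceeded SI centre replicate 1 by a factor of 20 or more there, its level had a median of 64.3% of the LI mean (quartiles 51.2% and 75%), against 1.63% in SI centre replicate 2. For the 37 genes chosen in the same way for the SI, it had a median of 54.5% of the level of SI centre replicate 1, against 98.3% in replicate 2. The SI libraries numbered 3 at the other GFP levels shared the feature. For the 47 LI genes their median was 84.5% of the LI mean in border cells and 86.1% beyond row 3, against 1.63% to 4.23% in the SI libraries numbered 1 and 2 of these levels. Their labels place all of them in the SI, and whether they came from another segment or hold another sample was not tested, so each SI mean that includes them carries this doubt. The centre library's share of mitochondrial ribosomal RNA was 29.5%, against 18.9% and 18.5% in replicates 1 and 2 and between 19% and 24.6% in the LI. The part of these features in the results was not tested. Calls use all libraries unless said otherwise. Counts for the gene lists described are also given without SI centre replicate 3 alone and without the SI libraries numbered 3 at all 3 GFP levels, the latter a setting chosen for the lists after the data were seen. Over all genes, the share called higher in the SI was 1.19% with all libraries, 1.97% without SI centre replicate 3 and 4.51% without the SI libraries numbered 3, and towards the LI these shares were 0.805%, 2.69% and 6.39%.

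Centre cells of SI and LI differed in 532 of 26717 genes tested (1.99%) at an adjusted p under 0.05, the Benjamini-Hochberg value of edgeR's test over all genes. Higher levels in the SI were called for 317 genes (1.19%) and in the LI for 215 genes (0.805%), and scaled by library size alone these counts were 281 and 336. The median absolute log2 fold change of the called genes was 2.06, and the median over all genes was 0. With all libraries, changes over 4-fold were far more frequent towards the SI, with 214 called genes against 57 towards the LI. These counts include SI replicate 3, with its median of 64.3% of the LI mean for the 47 LI genes above. For the 37 SI genes the median of SI replicate 3 was 54.5% of SI replicate 1. As a single example, *Muc2* had a log2 fold change of -1.06 with SI replicate 3 and -3.32 without it. Changes over 4-fold were not counted without SI replicate 3, so whether the asymmetry depends on this library was not tested. Without SI centre replicate 3, 1230 genes (4.66%) were called (519 or 1.97% higher in the SI, 711 or 2.69% in the LI), among them 497 of the 532, all with the same sign. Of 74 named genes that were called, 37 lost the call when at least 1 centre library was left out, without change of sign, and such genes are given with their highest adjusted p in that case. Without the SI libraries numbered 3 at all levels there were 2854 (1180 and 1674). The 3 SI libraries lay above the 3 LI libraries for 8.49% of genes and below them for 9.84%.

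**Figure D1:**
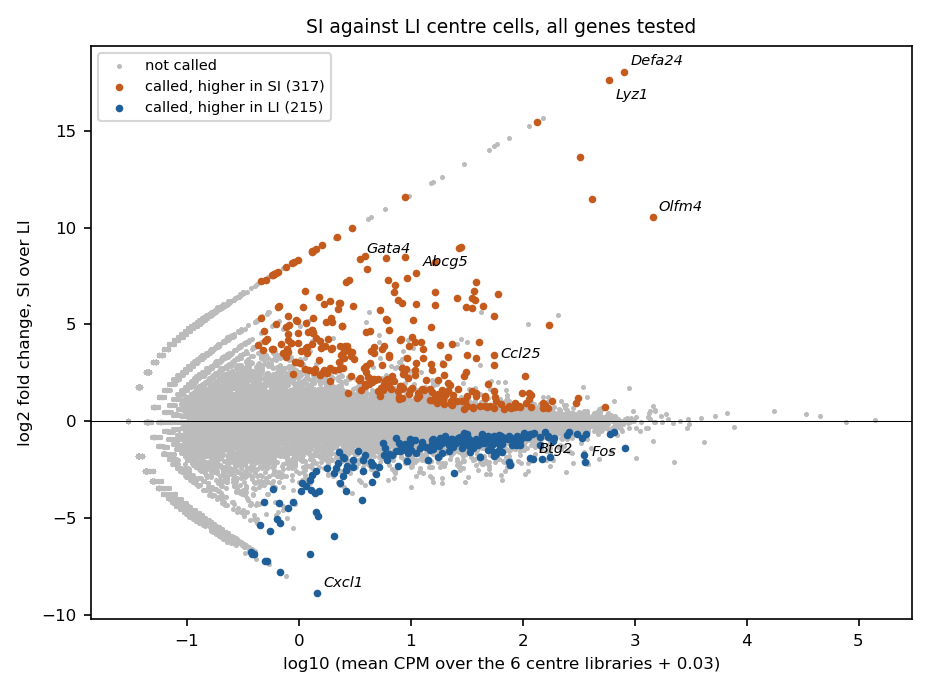
Each point is a gene tested, with its mean level over the 6 centre libraries on the x axis (log10 CPM plus 0.03) and the fitted log2 fold change of SI over LI on the y axis. With all libraries in the fit, the 317 genes called higher in the SI (orange) reach larger fold changes than the 215 called higher in the LI (blue). The curved outer rows are genes with 0 counts in all libraries of the other site.

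Several of the 12 leading genes towards the SI handle sterols and bile constituents. Leading genes have the smallest adjusted p among called genes with a mean of at least 10 CPM in the higher site and libraries that do not overlap. The promoters of *Abcg5* and *Abcc2*, the leading genes towards the SI, and of *Btg2* and *Nr4a1*, leading genes towards the LI, are shown because the motifs of regional transcription factors were searched in them, and that of *Fos* was added after its values were seen, as an abundant immediate-early gene. They are RefSeq sequences of GRCm38.p6 from 250 bases before to 50 after the start, written 5′ to 3′, with capitals marking the motif matches (*Abcg5* chr17:84682962-84683261, minus strand; *Abcc2* chr19:43782058-43782357, plus strand).
Abcg5: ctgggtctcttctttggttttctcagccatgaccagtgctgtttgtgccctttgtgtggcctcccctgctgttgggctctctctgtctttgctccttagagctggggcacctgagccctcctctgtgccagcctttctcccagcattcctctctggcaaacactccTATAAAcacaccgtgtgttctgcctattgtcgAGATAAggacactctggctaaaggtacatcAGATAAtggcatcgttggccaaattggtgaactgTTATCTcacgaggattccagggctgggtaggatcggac
Abcc2: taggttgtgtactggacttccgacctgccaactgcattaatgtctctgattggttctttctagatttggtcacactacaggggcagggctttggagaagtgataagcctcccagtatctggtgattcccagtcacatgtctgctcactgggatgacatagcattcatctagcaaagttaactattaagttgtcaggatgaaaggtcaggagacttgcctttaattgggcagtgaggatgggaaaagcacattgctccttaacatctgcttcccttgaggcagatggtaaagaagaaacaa
The following lie at chr1:134079106-134079405, minus strand (*Btg2*), chr15:101266596-101266895, plus strand (*Nr4a1*) and chr12:85473640-85473939, plus strand (*Fos*).
Btg2: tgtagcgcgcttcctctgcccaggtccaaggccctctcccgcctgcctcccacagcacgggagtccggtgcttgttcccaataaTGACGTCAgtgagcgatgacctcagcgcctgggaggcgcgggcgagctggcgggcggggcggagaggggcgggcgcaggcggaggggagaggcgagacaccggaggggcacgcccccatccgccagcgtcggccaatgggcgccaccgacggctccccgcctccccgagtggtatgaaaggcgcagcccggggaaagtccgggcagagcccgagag
Nr4a1: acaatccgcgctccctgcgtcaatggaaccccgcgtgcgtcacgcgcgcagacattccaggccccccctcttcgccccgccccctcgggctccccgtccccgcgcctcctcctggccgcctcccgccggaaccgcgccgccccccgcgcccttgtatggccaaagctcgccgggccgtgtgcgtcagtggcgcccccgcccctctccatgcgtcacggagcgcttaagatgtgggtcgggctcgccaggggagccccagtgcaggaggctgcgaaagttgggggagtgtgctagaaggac
Fos: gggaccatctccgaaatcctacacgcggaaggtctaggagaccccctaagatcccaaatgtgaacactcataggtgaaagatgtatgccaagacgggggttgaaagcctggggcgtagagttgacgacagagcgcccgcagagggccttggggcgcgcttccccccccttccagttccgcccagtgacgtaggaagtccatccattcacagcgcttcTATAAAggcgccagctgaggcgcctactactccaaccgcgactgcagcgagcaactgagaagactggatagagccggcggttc

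Motifs were searched on both strands. Those of the regional factors were AGATAA for the GATA family, CAAAGTC for HNF4, TTTATG for the CDX family and GTTAAT for HNF1, next to TATAAA for the TATA box. The cAMP response element, TGACGTCA, and the CArG box bound by serum response factor were added after values were seen. Promoters were found for 9 of the 12 leading SI genes and 9 of the 12 leading LI genes. *Ier2* and *Thbs1* had no entry. The GATA motif was in 4 of 9 SI promoters, those of *Abcg5*, *Abcg8*, *Dnm1* and *Sfrp5*, and in 1 of 9 LI promoters, that of *Ppp1r15a*, against 12.7% of all 27025 genes with a promoter. The *Abcg5* window holds it 3 times, beside a TATA box. *Abcg5* and *Abcg8* start next to each other on opposite strands, so their windows are not independent. The cAMP response element was in 2 of 9 LI promoters (*Btg2* and *Ppp1r15a*) and none of the 9 SI promoters, against 2.03% of all genes, and it was in 2 of 16 promoters of the immediate-early list. For SI and LI leading genes in turn, the HNF4 motif was in 0 and 1 of 9 promoters (5% of all genes), the CDX motif in 1 and 1 (13.6%), the HNF1 motif in 1 and 0 (8.24%), the TATA box in 3 and 3 (15.7%) and the CArG box in 0 and 2 (1.81%). The *Abcc2* and *Nr4a1* windows held none of these motifs. These matches describe letters and were not tested.

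*Abcg5* (ENSMUSG00000040505, chromosome 17, 84658234 to 84683011) encodes a subunit of the transporter that pumps sterols back into the gut lumen. Its level was 24.4, 20.6 and 21.7 CPM in the SI and 0, 0.187 and 0.084 CPM in the LI. The groups were far apart, and SI replicate 3 was at the level of the other SI libraries. The log2 fold change was 7.68 (SE 0.59, adjusted p = 9.35e-10), and 7.72 without SI replicate 3. Its partner subunit *Abcg8*, which overlaps it on the other strand, had 23.3, 24.2 and 13.6 CPM against 1.45, 0.299 and 0.084 CPM. This was a log2 fold change of 5.24 (SE 0.60, adjusted p = 3.26e-05). Because the strand of counting is not given, reads of the overlap may have been assigned to either gene.

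*Abcc2* (ENSMUSG00000025194, chromosome 19, 43782192 to 43840740), an exporter of conjugated compounds, had 43.0, 28.0 and 25.6 CPM in the SI against 0.754, 0.486 and 0.294 CPM in the LI. Its log2 fold change was 6.02 (SE 0.46, adjusted p = 1.04e-07). *Soat2*, which esterifies cholesterol, had 18.4, 17.6 and 13.8 CPM against 0.058, 0.449 and 0.126 CPM. *Npc1l1*, the transporter that takes up dietary cholesterol, had 16.7, 7.59 and 17.9 CPM against 0, 0.187 and 0.168 CPM. No library of these genes in the LI reached the lowest SI library, which the rule for leading genes requires. Of 19 genes for sterol and bile acid handling that were tested, 5 were higher in the SI (1.19% of all genes were) and none in the LI, with a median log2 fold change of 0.77. The count was 5 or 6 with any single library left out. Without the SI libraries numbered 3 it was 7 in the SI (4.51% of all genes) and 2 in the LI (6.39%). For cholesterol synthesis none of 22 was called by edgeR with all libraries or without SI replicate 3 alone. Without the SI libraries numbered 3, 2 were higher in the SI (4.51% of all genes were). With all libraries the median log2 fold change of the 22 was -0.06.

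**Figure D2:**
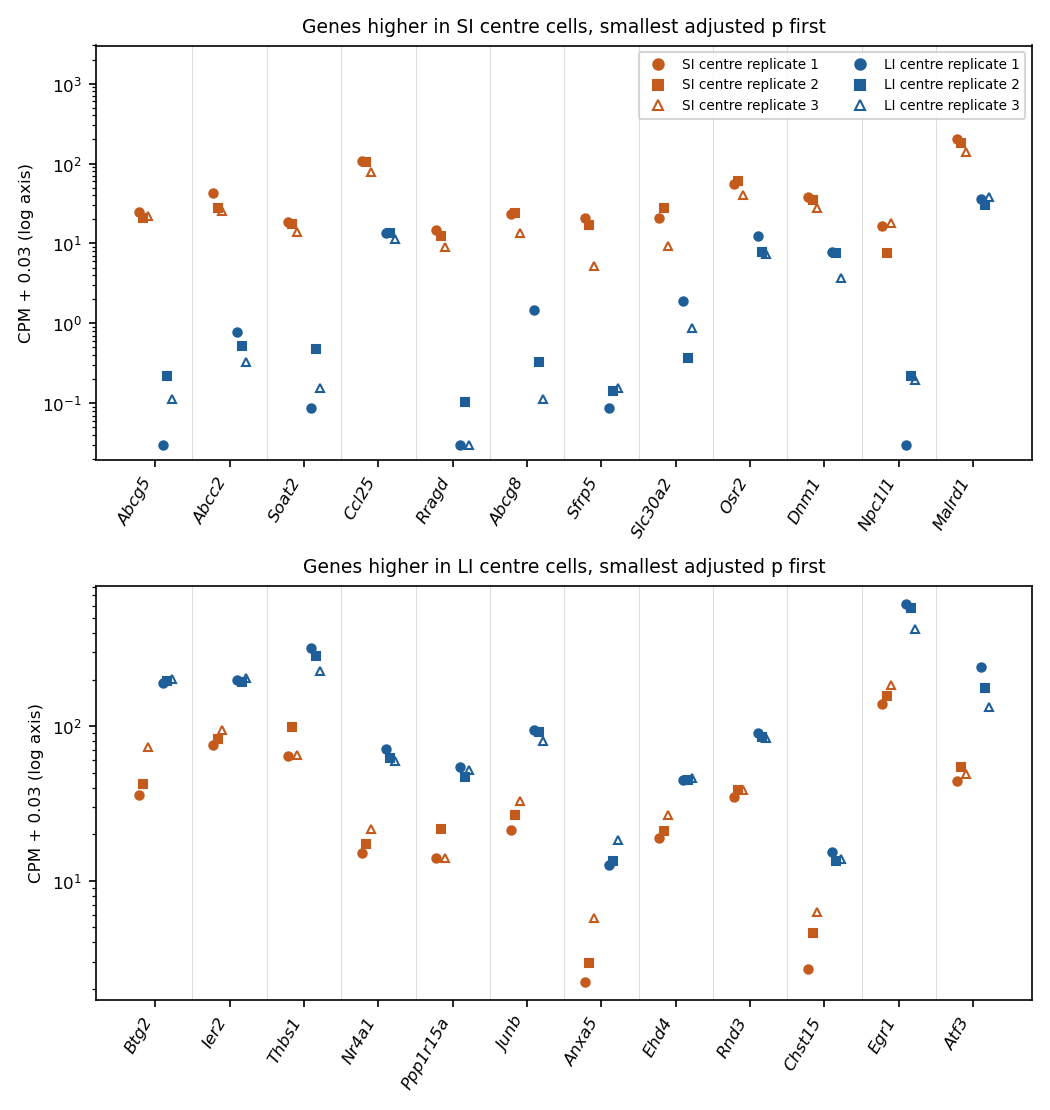
Level of the 12 leading genes in each direction in the 6 centre libraries (CPM plus 0.03, log axis), with SI in orange, LI in blue and a symbol per replicate number. No SI library overlaps an LI library in either panel, because the genes were chosen that way. Open orange triangles (SI replicate 3) lie on the side of the LI for genes such as *Sfrp5* and *Btg2*.

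Other leading SI genes were the chemokine *Ccl25*, a homing signal for lymphocytes of the SI, with 108, 105 and 77.2 CPM against 13.6, 13.5 and 11.3 CPM. Its log2 fold change was 2.92 (SE 0.24, adjusted p = 3.71e-07), and it overlaps *Elavl1* on the other strand. *Slc30a2*, a zinc transporter, had 21.1, 27.4 and 9.37 CPM against 1.86, 0.337 and 0.84 CPM. *Malrd1*, a membrane protein linked to bile acid control, had 202, 181 and 138 CPM against 35.8, 30.3 and 37.8 CPM. *Rragd*, a GTPase of amino acid signalling to mTORC1, had 2 counts in all LI libraries together. Its ratio was 412 with a counting interval (95%, counting error only) of 114 to 3406. Each of the 12 leading SI genes passed the threshold in all 17 settings in which it was tested.

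Genes of fat absorption, a task of enterocytes, were detected in SI centre libraries. Of 20 genes for fat absorption, 6 were higher in the SI (1.19% of all genes were) and none in the LI, with a median log2 fold change of 0.22. The count fell to 3 without LI replicate 2 or 3 and stayed at 6 without SI replicate 3 (1.97% of all genes were higher in the SI). It reached 7 towards the SI (4.51% of all genes) and 1 towards the LI (6.39%) without the SI libraries numbered 3. *Apoa1*, an apolipoprotein of HDL, had 98.1, 15.3 and 53.5 CPM against 0, 0.187 and 0.084 CPM. *Mttp*, which loads lipid onto apolipoprotein B, had 35.0, 19.4 and 24.8 CPM against 4.06, 4.45 and 4.33 CPM, a log2 fold change of 2.62 (SE 0.40, adjusted p = 0.00206). *Apoa4* had 28.2, 9.78 and 15.2 CPM and no count in the LI, at least 411-fold higher, with the LI set to 3 counts over the group. By contrast *Apob* and *Fabp2* overlapped between the sites, with adjusted p = 1 for both.

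Among 25 genes for the digestion and uptake of sugar and peptides, 7 were higher in the SI (1.19% of all genes were), none in the LI, and the median log2 fold change was 2.40. Without SI replicate 1 or LI replicate 1 the count was 2, without LI replicate 2 or 3 it was 1, without SI replicate 3 it was 8 (1.97% of all genes), and without the SI libraries numbered 3 it was 10 (4.51%). *Naaladl1*, a peptidase, had 88.6, 57.2 and 63.9 CPM against 5.86, 6.88 and 8.78 CPM. Its log2 fold change was 3.28 (SE 0.44, adjusted p = 0.00123). *Slc15a1*, the peptide transporter PEPT1, had 6.96, 1.43 and 9.27 CPM against 0, 0.15 and 0.084 CPM. *Enpep*, a peptidase of the brush border, had 22.2, 9.96 and 21.5 CPM against 0.754, 1.46 and 1.26 CPM (log2 fold change 3.91, SE 0.75, adjusted p = 0.0196), with its lowest SI level in replicate 2. Its adjusted p rose to as much as 0.104 without SI replicate 1 or any single LI library, and that of *Slc15a1* to 0.0887 without any single LI library. *Mgam*, a glucosidase, had 1045, 973 and 606 CPM against 451, 406 and 399 CPM (log2 fold change 1.06, adjusted p = 0.109, and 1.29 with adjusted p = 0.038 without SI replicate 3). *Slc5a1*, the sodium-glucose transporter, did not separate the sites (-0.16, adjusted p = 0.848). For the structural genes of the brush border, 2 of 16 were called with all libraries, both higher in the SI (1.19% of all genes were), of which *Myo7b* had 431, 461 and 304 CPM against 211, 204 and 200 CPM. The count was 1 without SI replicate 1 or any single LI library. Leaving out SI replicate 3 alone gave 3 towards the SI (1.97% of all genes) and 2 towards the LI (2.69%). Leaving out the SI libraries numbered 3 gave 3 in each direction (4.51% and 6.39%).

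Transcription factors of the SI were part of the difference. *Gata4* (ENSMUSG00000021944, chromosome 14, 63198922 to 63271692) had 7.39, 6.52 and 6.93 CPM in the SI, and 1 count in total in the LI. Its ratio was 472, with a counting interval of 84.3 to 18690 (adjusted p = 3.78e-05). This gene was at the same level in SI replicate 3 as in the other SI libraries. *Gata5* had 58.8, 49.0 and 22.5 CPM against 4.87, 1.5 and 2.1 CPM, a log2 fold change of 4.0 (SE 0.56, adjusted p = 0.0016). *Gata6*, of the same family, had 73.9, 61.6 and 54.6 CPM against 57.6, 52.4 and 57.3 CPM, and its libraries overlapped. *Osr2* had 56.2, 60.7 and 40.5 CPM against 12.2, 7.82 and 7.35 CPM. With *Creb3l3*, which had 4.68, 0.759 and 3.26 CPM against 0, 0.187 and 0.252 CPM, 4 of 11 listed factors of the SI were called higher in the SI (1.19% of all genes were), and none in the LI. The count was 4 without SI replicate 2, and 4 without SI replicate 3 (1.97% of all genes). It was 3 without SI replicate 1 or any single LI library, and 3 without the SI libraries numbered 3 (4.51% of all genes). *Creb3l3* lost its call without SI replicate 1 or any LI library (adjusted p up to 0.176).

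Of 15 factors used along the whole intestine, 2 were called, 1 in the SI (1.19% of all genes were) and 1 in the LI (0.805%). *Cdx1* was higher in the LI, with 93.7, 94.5 and 114 CPM in the SI against 144, 149 and 164 CPM (log2 fold change -0.60, SE 0.14, adjusted p = 0.0304). *Nr5a2*, a nuclear receptor, was higher in the SI with 57.0, 55.1 and 44.1 CPM against 37.6, 26.9 and 25.9 CPM (0.79, SE 0.21, adjusted p = 0.0498). Left out in turn, SI replicates 1 and 2 and LI replicates 2 and 3 each ended both calls, and LI replicate 1 that of *Cdx1* (adjusted p up to 0.162 for *Cdx1* and 0.241 for *Nr5a2*). *Cdx2* had 90.0, 85.2 and 156 CPM against 167, 145 and 186 CPM (-0.59, adjusted p = 0.46, and -0.88 with adjusted p = 0.0004 without the SI libraries numbered 3), and *Hnf4a* 548, 498 and 401 CPM against 465, 383 and 388 CPM (0.23, adjusted p = 0.488). In neither were the groups apart in all libraries. With SI replicate 3 left out 3 of the 15 factors were higher in the LI (2.69% of all genes were) and 1 in the SI (1.97%). Without the SI libraries numbered 3 there were 7 (6.39%) and 1 (4.51%).

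The Hox genes, which set position along the body axis, split the SI libraries. *Hoxa9* had 0.0393, 0 and 13.4 CPM against 39.3, 30.8 and 29.8 CPM, and *Hoxa7* had 0, 0.357 and 43.2 CPM against 63.8, 52.9 and 56.4 CPM. None of 33 Hox genes tested was called with all libraries. Higher in the LI were 2 without SI replicate 3 alone (2.69% of all genes) and 14 without the SI libraries numbered 3 (6.39%). Genes of the HoxB cluster were also present in the SI, with *Hoxb9* at 22.0, 23.5 and 44.4 CPM against 66.0, 46.8 and 53.4 CPM. *Hoxb5* had 34.2, 31.4 and 53.7 CPM against 43.9, 23.3 and 19.5 CPM, and was not separated in any direction.

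Among 20 stem cell markers tested, *Olfm4* was the only one called. *Olfm4* (ENSMUSG00000022026, chromosome 14, 79984081 to 80023139), a secreted glycoprotein that marks stem cells of the SI, had 3995, 3821 and 856 CPM in the SI and 0, 4.08 and 1.22 CPM in the LI. Its log2 fold change was 10.56 (SE 1.87, adjusted p = 0.0121), and 11.01 (adjusted p = 0.0064) without SI replicate 3, which had the lowest SI level. Without LI replicate 2 or 3 the adjusted p was up to 0.0815. *Lgr5* (ENSMUSG00000020140, chromosome 10, 115450311 to 115587780), whose locus drives the GFP of the sort, had 255, 203 and 120 CPM against 127, 119 and 112 CPM (0.69, SE 0.74, adjusted p = 0.78). *Ascl2*, a Wnt-driven factor of stem cell fate, had 18.4, 13 and 10.4 CPM against 11.5, 14.5 and 18.5 CPM (-0.09, adjusted p = 1), and its sign turned to 0.10 without SI replicate 3. *Smoc2* had 270, 257 and 106 CPM against 92.4, 88.3 and 88.5 CPM (1.23, adjusted p = 0.535). The libraries of 9 of the 20 markers did not overlap, all higher in the SI, as were 8.49% of all genes. Without SI replicate 3 alone, 3 of the 20 were called, all higher in the SI (1.97% of all genes were). Without the SI libraries numbered 3, 10 of the 20 were called, all higher in the SI. Among them were *Smoc2* (1.60, adjusted p = 4.7e-06) and *Tnfrsf19* (3.59, adjusted p = 1.1e-08), but not *Lgr5* (0.98, adjusted p = 0.079). In that setting 4.51% of all genes were called higher in the SI.

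Wnt feedback genes were called higher in the SI for *Sfrp5* and *Lef1*. *Sfrp5*, a secreted Wnt antagonist, had 20.9, 16.8 and 5.23 CPM against 0.058, 0.112 and 0.126 CPM, a log2 fold change of 7.04 (SE 0.87, adjusted p = 3.48e-05). *Lef1*, a partner of beta-catenin, had 3.85, 2.01 and 0.964 CPM against 0, 0.0374 and 0.21 CPM (4.62, SE 0.97, adjusted p = 0.00863). *Lef1* lost its call without SI replicate 1 or LI replicate 2 (adjusted p up to 0.085). *Axin2* (ENSMUSG00000000142, chromosome 11, 108920349 to 108950783), a feedback inhibitor commonly read as a reporter of Wnt signalling, had 621, 656 and 331 CPM against 180, 149 and 146 CPM. All SI libraries were above all LI libraries, but the log2 fold change of 1.76 (SE 0.58) had an adjusted p of 0.159, while the log2 fold change was 2.06 (adjusted p = 3e-09) without the SI libraries numbered 3. *Rnf43*, a ubiquitin ligase that removes Wnt receptors, had 352, 314 and 215 CPM against 175, 134 and 123 CPM (1.03, adjusted p = 0.0792). *Cd44* was the other way round, with 227, 231 and 332 CPM against 487, 526 and 466 CPM (-0.91, adjusted p = 0.277). *Myc* and *Ccnd1* overlapped between the sites. Of 20 targets tested 2 were called, both higher in the SI, 5 were without SI replicate 3 and 7 without the SI libraries numbered 3, where 1.19%, 1.97% and 4.51% of all genes were higher in the SI. The count was 1 without SI replicate 1 or LI replicate 2. Of 16 Wnt receptors 1 was called. This was *Fzd4*, with 0.668, 1.25 and 0.689 CPM against 4.93, 3.67 and 4.71 CPM (-2.34, SE 0.38, adjusted p = 0.00155), and *Lgr4* was not (0.39, adjusted p = 0.372). With SI replicate 3 left out 2 receptors were higher in the LI (2.69% of all genes were). Without the SI libraries numbered 3, 5 were higher in the LI (6.39% of all genes) and 1 in the SI (4.51%).

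Signals of other niche pathways gave few calls with all libraries. In the Notch list *Notch3* was higher in the LI, with 1.53, 1.47 and 2.34 CPM against 6.79, 5.42 and 5.55 CPM (-1.73, SE 0.40, adjusted p = 0.0247). The BMP target *Id2* had 5.11, 5.36 and 6.79 CPM against 16, 8.68 and 15.3 CPM (-1.21, SE 0.28, adjusted p = 0.0246). Both calls were lost without SI replicate 1 or 2 or LI replicate 1 or 3, and that of *Notch3* also without LI replicate 2, with adjusted p up to 0.132 for *Notch3* and 0.135 for *Id2*. *Errfi1*, a feedback inhibitor of EGF receptors, had 25.1, 23.8 and 31.8 CPM against 63.4, 66.6 and 48.6 CPM (-1.15, SE 0.20, adjusted p = 0.00328). The EGF receptor ligand *Areg* had 2.40, 3.57 and 13.8 CPM against 33.6, 47.6 and 46.7 CPM (-2.71, adjusted p = 0.0596, and -3.82 with adjusted p = 0.0041 without SI replicate 3). With all libraries the Notch (18 tested), BMP (21) and EGF receptor (14) lists each held 1 call, towards the LI (0.805% of all genes). The Eph receptors and ephrins (17) held none. Leaving out SI replicate 3 alone, the Notch list had 2 genes higher in the SI and 3 towards the LI. The BMP list had 3 in the LI, the EGF receptor list 2 in the LI and the Eph family 1 in the SI. Over all genes, 1.97% were then higher in the SI and 2.69% in the LI. Without the SI libraries numbered 3 the counts in SI and LI were 2 and 3 for Notch and 1 and 6 for BMP. They were 0 and 5 for EGF receptors and 1 and 1 for the Eph family, against 4.51% and 6.39% of all genes.

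**Figure D3:**
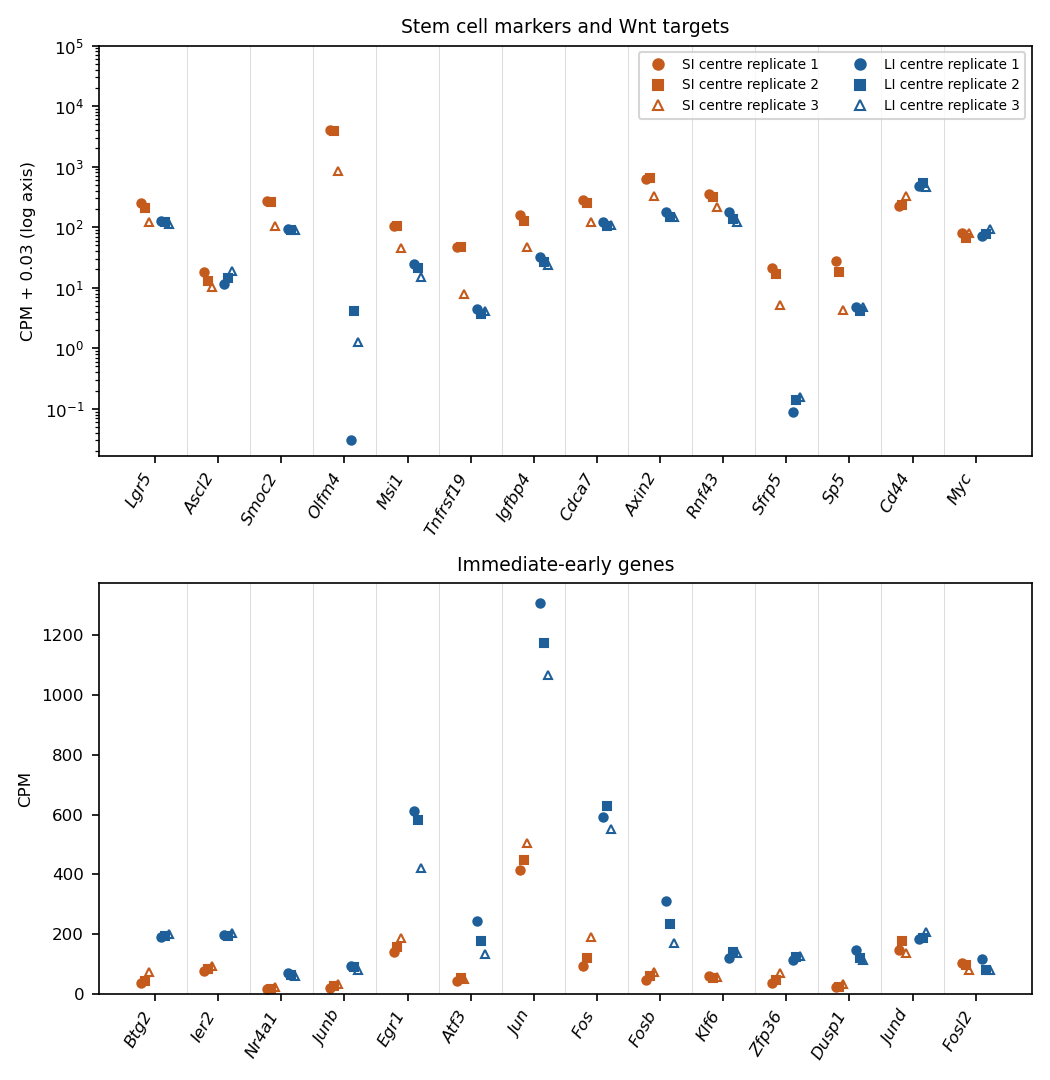
Level of stem cell markers and Wnt targets (upper panel, CPM plus 0.03, log axis) and of immediate-early genes (lower panel, CPM, linear axis) in the 6 centre libraries. *Olfm4* and *Sfrp5* differ most in the upper panel, where SI replicate 3 (open orange triangle) sits below the other SI libraries for many genes, whereas for most of the lower panel all 3 SI libraries lie below all 3 LI libraries.

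Immediate-early genes, which cells transcribe within minutes of a stimulus, had the highest share of called members towards the LI among the 34 lists. Of 20 tested, 14 were higher in the LI and none in the SI, against 0.805% of all genes, with a median log2 fold change of -1.73. In 17 of the 20 every LI library lay above every SI library, as in 9.84% of all genes. *Fos* (ENSMUSG00000021250, chromosome 12, 85473890 to 85477273) had 92.6, 120 and 191 CPM in the SI and 591, 628 and 553 CPM in the LI. The log2 fold change was -2.13 (SE 0.33, adjusted p = 0.00354). *Btg2* (ENSMUSG00000020423, chromosome 1, 134075170 to 134079120), an antiproliferative gene, had 36, 42.3 and 72.8 CPM against 189, 196 and 200 CPM (-1.95, SE 0.26, adjusted p = 3.25e-04). *Egr1* had 139, 156 and 186 CPM against 613, 581 and 422 CPM (-1.75, SE 0.27, adjusted p = 0.00193). *Jun*, *Junb*, *Fosb*, *Atf3*, *Nr4a1* and *Dusp1* were also called.

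Some members were not called. *Jund* had 147, 178 and 136 CPM against 184, 188 and 207 CPM (-0.33, adjusted p = 0.358), *Fosl2* had an adjusted p of 1 (0.02), and *Nr4a2* an adjusted p of 0.994 (-0.09). Of the 14 called members, 13 were also called without SI replicate 3 (2.69% of all genes were higher in the LI). Without the SI libraries numbered 3 all 14 were (6.39% of all genes). Signs were the same in both settings. Any other single library left out gave 11 or 12. Genes among the leading 12 towards the LI but outside the list were *Thbs1*, *Ppp1r15a*, *Rnd3*, *Anxa5*, *Ehd4* and *Chst15*. *Thbs1*, a matrix glycoprotein, had 64.5, 99.4 and 65.3 CPM against 320, 283 and 226 CPM. *Ppp1r15a*, a stress-induced phosphatase subunit, had 14, 21.8 and 14 CPM against 54.3, 47.1 and 51.9 CPM. *Rnd3*, an atypical small GTPase, had 34.9, 38.6 and 38.7 CPM against 90.6, 85.4 and 84.4 CPM. Heat shock genes, another set that responds fast, had 2 of 12 called, both higher in the LI (0.805% of all genes were). The count was 0 without SI replicate 1 or 2 or LI replicate 1 or 2, and 2 without LI replicate 3. It was 2 without SI replicate 3 (2.69% of all genes) and 1 without the SI libraries numbered 3 (6.39%). *Dnajb1* had 31.3, 29.6 and 35.4 CPM against 111, 121 and 60.2 CPM, while the summed level of the list was 4472 to 5686 CPM in the SI and 5244 to 6472 CPM in the LI. The adjusted p of *Dnajb1* rose to as much as 0.147 with 1 library left out, and that of *Bag3*, the other called member, to 0.18. Whether their levels and those of the immediate-early genes are related was not tested.

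Paneth cell products were abundant in the SI libraries and at or near 0 counts in the LI. *Lyz1* (ENSMUSG00000069515, chromosome 10, 117287797 to 117292868), the Paneth cell lysozyme, had 549, 2388 and 601 CPM in the SI and no count in any LI library, at least 26120-fold higher with the LI set to 3 counts over the group (adjusted p = 0.0153). *Defa24*, a defensin, had 674, 3390 and 793 CPM and no count in the LI, at least 35790-fold higher (adjusted p = 2.62e-04). In both genes SI replicate 2 stood above the other SI libraries, and SI replicate 3 was near replicate 1. *Itln1*, a lectin, had 383, 1725 and 403 CPM against 0, 0.599 and 0.168 CPM, and *Mmp7*, the protease that activates defensins, 36.3, 105 and 20.3 CPM against 0, 0.15 and 0.126 CPM. The calls of *Lyz1* and *Mmp7* were lost without LI replicate 2 or 3, with adjusted p up to 0.0665 and 0.0624. Of 17 Paneth genes tested 7 were called, all higher in the SI, as 1.19% of all genes were. The count was 2 without LI replicate 2 or 3, 7 without SI replicate 3 (1.97% of all genes) and 11 without the SI libraries numbered 3 (4.51%). The median log2 fold change of the list, with the 10 genes at 0 in the LI at their lower bound, was 9.44. *Cd24a*, which other crypt cells also express, had 227, 276 and 365 CPM against 296, 328 and 406 CPM. The defensins are close paralogues, so their single values are uncertain. *Wnt3*, the Wnt ligand of Paneth cells, had 11.7, 18.6 and 4.55 CPM against 0.058, 1.38 and 1.60 CPM (3.41, SE 0.78, adjusted p = 0.0304 with all libraries). The 2 calls left in the Paneth list without LI replicate 2 or 3 were those of *Defa24* and *Itln1*, so no other member of the list was called there. In these bulk libraries, more cells of a type and more RNA per cell cannot be told apart.

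The summed level of goblet lineage genes was lower in SI replicates 1 and 2 than in the LI, but not in SI replicate 3. Single members differed. For 2 of the 19 every LI library lay above every SI library (9.84% of all genes), and for 1 the reverse held (8.49%). *Muc2*, the gel-forming mucin, had 362, 760 and 7017 CPM in the SI and 5577, 4519 and 6929 CPM in the LI. SI replicate 3 was above every LI library, and the log2 fold change was -1.06 (adjusted p = 0.633) with it and -3.32 (adjusted p = 0.0027) without it. *Reg4*, a marker of deep crypt secretory cells, had 14.4, 41.9 and 1248 CPM against 1039, 1250 and 2551 CPM. *Spdef*, the goblet cell factor, had 2.99, 6.21 and 36.9 CPM against 24.7, 45.4 and 62.8 CPM. None of 19 genes was called with all libraries. Without SI replicate 3 alone, 8 were higher in the LI (2.69% of all genes were) and 1 in the SI (1.97%). Without the SI libraries numbered 3, 11 were higher in the LI (6.39% of all genes) and 1, *Clca1*, in the SI (4.51%). Their summed level was 1402 and 2145 CPM in SI replicates 1 and 2 and 13450 CPM in replicate 3, against 10160 to 16430 CPM in the LI.

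Tuft cell genes, of a chemosensory type, were highest in SI replicate 3, where they summed to 641 CPM, against 45.8 and 52.4 CPM in the other SI libraries and 233 to 349 CPM in the LI. *Dclk1* had 8.10, 10.4 and 204 CPM against 120, 95.4 and 74.8 CPM. No tuft gene was called with all libraries, 6 of 16 were higher in the LI without SI replicate 3 alone (2.69% of all genes were), and 11 (6.39% of all genes) were higher in the LI without the SI libraries numbered 3. Enteroendocrine genes varied inside the SI, with sums of 52.0, 307 and 18.4 CPM, and none of 20 was called by edgeR with all libraries. Without SI replicate 3 alone 1 was higher in the LI (2.69% of all genes were), and without the SI libraries numbered 3 also 1 (6.39%). *Chgb* had 28.6, 172 and 1.56 CPM against 116, 153 and 157 CPM.

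**Figure D4:**
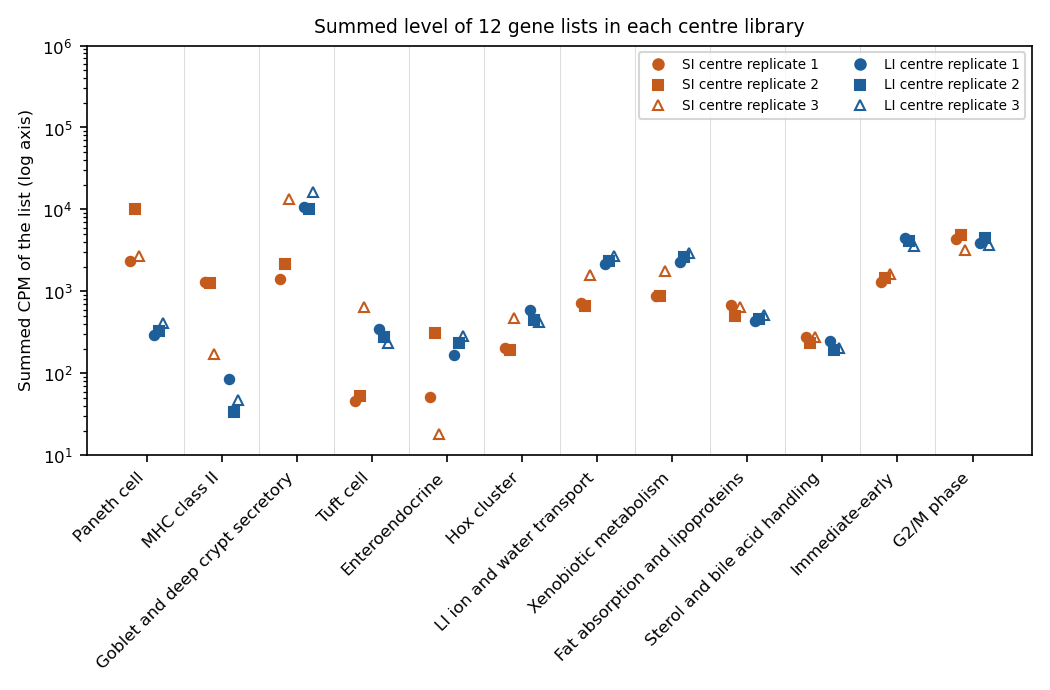
Summed CPM of the members of 12 gene lists in each of the 6 centre libraries, on a log axis. Paneth and MHC class II genes were higher in the SI and immediate-early genes in the LI in all libraries, while in the goblet, tuft and Hox lists SI replicate 3 (open orange triangle) lies with or above the LI libraries.

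Of 9 genes for antigen presentation by MHC class II, 4 were called, all higher in the SI, where 1.19% of all genes were. *H2-Aa* had 105, 104 and 9.96 CPM in the SI and 0.638, 0.262 and 1.18 CPM in the LI, a log2 fold change of 6.72 (SE 1.18, adjusted p = 0.0109). SI replicate 3 was far below the other SI libraries and still above the LI. *Ciita*, the master regulator of these genes, had 82.1, 88.0 and 11.3 CPM against 2.79, 0.224 and 0.462 CPM (5.88, SE 0.99, adjusted p = 0.00923). Without LI replicate 2 or 3 both lost the call, and *H2-Aa* also without LI replicate 1, with adjusted p up to 0.0724 for *H2-Aa* and 0.0684 for *Ciita*. The invariant chain *Cd74* had 577, 567 and 69.3 CPM against 20.9, 1.83 and 5.08 CPM (5.49, adjusted p = 0.051, and 6.02 with adjusted p = 0.018 without SI replicate 3). Without SI replicate 3 alone 7 of the 9 were called (1.97% of all genes), and 7 without the SI libraries numbered 3 (4.51%), all higher in the SI. Without LI replicate 1 there were 2, and without LI replicate 2 or 3 none was called by edgeR. The immune marker *Ptprc* had 2.16, 1.03 and 12.6 CPM against 10.2, 4.86 and 5.51 CPM, with its highest SI level in replicate 3, and the B cell marker *Ms4a1* had no count in 5 of the 6 libraries. *Itgam*, a marker of myeloid cells, had 19.4, 15.1 and 8.03 CPM against 5.16, 2.81 and 3.03 CPM, all SI libraries above the LI and with the lowest SI level in replicate 3 as for *H2-Aa* (1.98, adjusted p = 0.223, and 2.33 with adjusted p = 1.6e-06 without the SI libraries numbered 3). The part of immune cells in the MHC class II levels was not tested. *Ctss*, which also acts in other cells, had 27.5, 26.8 and 25.2 CPM against 36.7, 27.9 and 34.1 CPM, so that every LI library was above every SI library.

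A few epithelial defence genes were called in each direction. The antimicrobial lectins *Reg3g* and *Reg3b* were higher in the SI, with 150, 94.3 and 18.2 CPM for *Reg3g* against 1.33, 0.935 and 1.93 CPM (5.97, SE 1.01, adjusted p = 0.0103). The chemokine *Cxcl1* had no count in the SI and 4.58, 1.87 and 2.14 CPM in the LI, at least 61.6-fold higher there (adjusted p = 0.00968). *Reg3g* lost its call without LI replicate 2 or 3 (adjusted p up to 0.0692), *Reg3b* without any library but SI replicate 3 (up to 0.115) and *Cxcl1* without SI replicate 1 (0.0551). In all, 3 of 35 were higher in the SI and 2 in the LI, against 1.19% and 0.805% of all genes. Without LI replicate 2 or 3 there was 1 in the SI, and without SI replicate 1 there was none in the LI. Without SI replicate 3 there were 4 and 3 (1.97% and 2.69% of all genes). Without the SI libraries numbered 3 there were 7 and 7 (4.51% and 6.39%).

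Of 35 glycosyltransferases, which build the sugar chains of mucins and of the cell surface, 2 were higher in the SI and 5 in the LI (1.19% and 0.805% of all genes were). *Gcnt2* had 6.68, 2.77 and 4.45 CPM against 0, 0.187 and 0.21 CPM (4.94, SE 0.72, adjusted p = 3.51e-04), and *B3gnt3* had 25.3, 20.6 and 34.2 CPM against 51.6, 53.0 and 61.6 CPM (-1.05, SE 0.20, adjusted p = 0.00683) with all libraries and 0.0629 without SI replicate 2. *Fut2*, a fucosyltransferase, had 1.96, 2.95 and 21.4 CPM against 49.6, 31.7 and 52.2 CPM (-2.35, adjusted p = 0.137, and -4.16 with adjusted p = 4.4e-04 without SI replicate 3). Without SI replicate 3 alone, 2 were higher in the SI (1.97% of all genes) and 15 in the LI (2.69%). Without the SI libraries numbered 3 these were 4 (4.51%) and 21 (6.39%). Towards the LI there were none without SI replicate 2, 1 without SI replicate 1 or LI replicate 3, and 2 without LI replicate 2.

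Among LI genes of ion and water transport, *Car1* and *Scnn1a* were higher in SI replicate 3 than in the other SI libraries. *Car1*, a carbonic anhydrase of LI surface cells, had 0, 0.313 and 82.1 CPM against 123, 192 and 232 CPM. *Scnn1a*, a subunit of the epithelial sodium channel, had 4.95, 6.48 and 63.6 CPM against 66.9, 64.0 and 92.5 CPM. *Cftr*, of the same list, did not show this, with 320, 267 and 304 CPM against 413, 419 and 377 CPM. None of 24 was called with all libraries, although 14 had every LI library above every SI library, as in 9.84% of all genes. In this list 4 were called higher in the LI without SI replicate 3 alone (2.69% of all genes) and 15 without the SI libraries numbered 3 (6.39%). Among 39 genes of xenobiotic metabolism, *Cyp2u1* was called in the SI and *Ugt2b35* in the LI, where 1.19% and 0.805% of all genes were. Both lost their calls without most single libraries (adjusted p up to 0.166 and 0.194). Higher in the LI were 4 without SI replicate 3 alone (2.69% of all genes) and 20 without the SI libraries numbered 3 (6.39%). *Sult1a1* had 1.34, 2.32 and 299 CPM against 387, 492 and 498 CPM.

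Genes of the cell cycle gave no difference past the threshold with all libraries. None of 27 S phase and none of 26 G2/M genes was called by edgeR, with medians of 0.14 and -0.01, nor were any without SI replicate 3 alone. Without the SI libraries numbered 3, 4 S phase genes were higher in the SI (4.51% of all genes were) and 1, *Rrm2*, in the LI (6.39%). No G2/M gene was called there. *Mki67*, the proliferation marker, had 1462, 1641 and 1298 CPM against 1569, 1660 and 1305 CPM (-0.04, SE 0.23, adjusted p = 1), with a sign that changed between settings. *Rrm2*, a ribonucleotide reductase subunit, came nearest with 32.3, 29.8 and 32.3 CPM against 54.2, 52.2 and 51.6 CPM (-0.74, adjusted p = 0.0832). No keratin of 8 was called with all libraries, with *Krt8* at 676, 745 and 1236 CPM against 1092, 1168 and 1183 CPM. Without SI replicate 3 alone 1 was higher in the SI (1.97% of all genes were). Without the SI libraries numbered 3 there were 3 higher in the LI (6.39%), among them *Krt8* (-0.65, adjusted p = 0.00295), and 1 in the SI (4.51%).

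**Figure D5:**
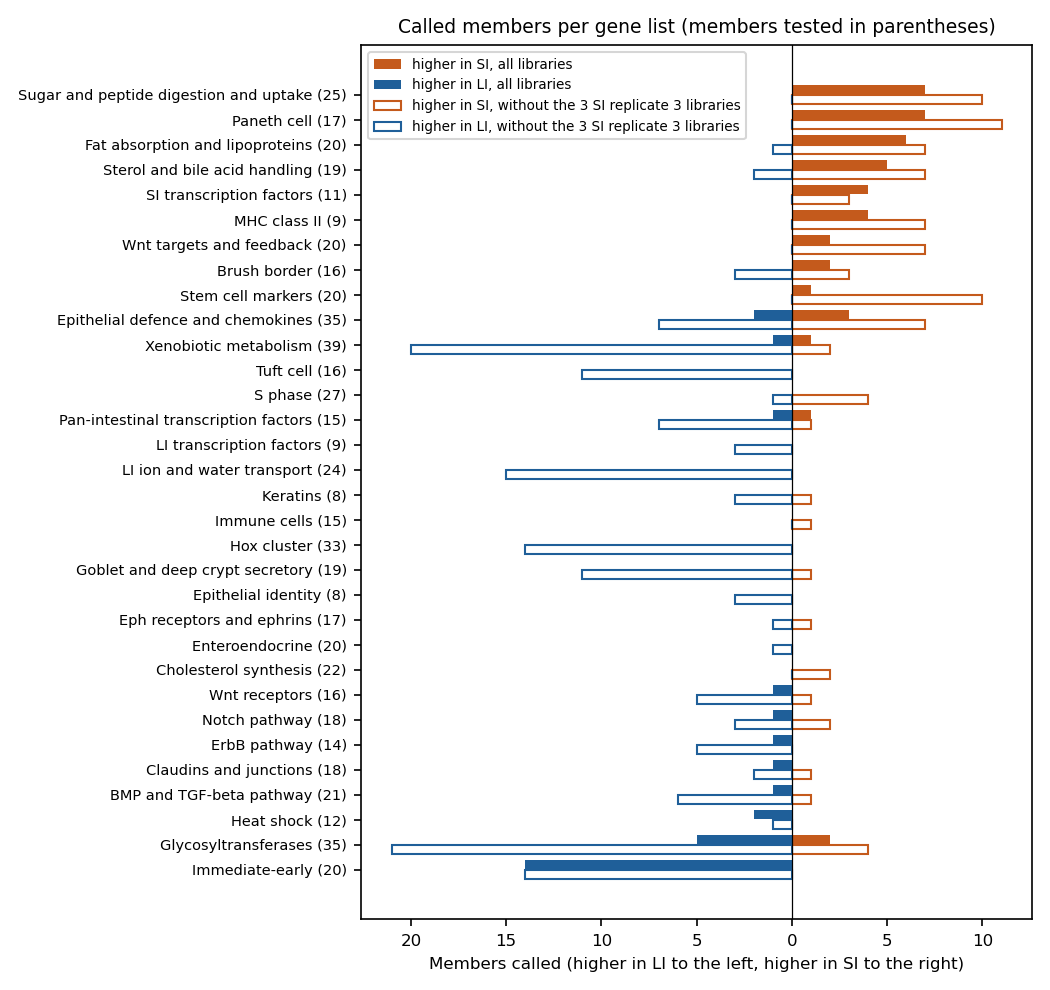
Members called per list, drawn to the left for genes higher in the LI and to the right for genes higher in the SI, for 32 of 34 lists with any call and with the number tested in parentheses. Filled bars use all 18 libraries and open bars leave out the SI libraries numbered 3, and immediate-early genes keep 14 in both, whereas 0 Hox genes become 14.

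The site difference of centre cells was also set against that of border cells and of cells beyond row 3, in the same fit. No gene had a site difference in centre cells that differed from that in border cells by edgeR, with 708 at an unadjusted p under 0.05 (DESeq2 called 2, with 712), and none one that differed from that in cells beyond row 3, with 1800 (DESeq2 151, with 1741). Without SI centre replicate 3 the counts were 23 and 231, and with a block by replicate number over all libraries they were 0 and 13. Libraries numbered 2 held Y-linked counts at all GFP levels, and the SI libraries numbered 3 shared LI-like levels. The main fit does not use such links between libraries of one number. These comparisons use the same centre libraries as the main one.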

How the data were processed

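RNA of sorted Lgr5+ cells was sequenced in 18 libraries, 3 for each of 6 groups, with replicate numbers from the labels. The authors demultiplexed (bcl2fastq), trimmed and aligned reads to mm10 with STAR, and deposited raw counts per gene of which 43346 genes are listed. Annotation release and strand of counting: not given in the sources used here. A second deposited table of normalised counts was not used. Tests used edgeR 4.0.16 in R 4.3.3 on raw counts (TMM, mean count above 0, robust quasi-likelihood fit of the 6 groups, 12 residual degrees of freedom, adjusted p under 0.05). The fit takes the 18 libraries as independent, although libraries of one number shared features across GFP levels within a site. The 12 residual degrees of freedom may therefore be too many. In a fit of the centre libraries only, 625 genes were called, and 15 of the 74 named calls were lost. DESeq2 1.42.0 was an alternative, next to other filters and scalings, a block by replicate number and leaving out libraries. The script was tested on simulated data. Standard errors are the log2 fold change divided by the root of the F statistic.

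The gene lists, members and naming rule were chosen with earlier results of these data known. Named were, per direction, the 12 called genes with the smallest adjusted p and 5 with the highest CPM, among those with a mean of at least 10 CPM in the higher site and libraries that do not overlap, up to 4 called members per list and direction (or 2 with the highest CPM where none was called), and 12 fixed markers. List members outside that rule, such as *Hoxa9*, *Hoxa7*, *Car1*, *Reg4*, *Areg* and *Fut2*, were chosen after their values were seen. All 106 named genes had a GENCODE M21 position on GRCm38 and 77 a RefSeq promoter, and 20 overlapped a gene of at least 1 CPM. Precision is limited by 3 libraries a site. Some named genes are not reported here.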

Additional observations from a re-analysis of the deposited data

How the results depend on the processing

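Of 106 named genes 74 were called, and all 74 kept their sign in the 17 settings, 20 of them with a call in each. The total of 532 (317 higher in SI, 215 in LI) became 1229 with DESeq2 (687 and 542) and 2854 without the SI libraries numbered 3 (1180 and 1674). It was 108 (100 and 8) where the test asked for an absolute log2 fold change above 1, instead of any difference. This is not the number of called genes whose fitted fold change passes that size. Genes higher in the LI were 328 with filterByExpr and 336 with library size only, and those higher in the SI were 211 in the legacy fit. Leaving out 1 centre library in turn gave 180 to 1230 in total, 100 to 519 higher in the SI and 50 to 711 in the LI, the highest each without SI replicate 3, and 193, 210, 340, 180 and 180 in total without SI replicates 1 and 2 and LI replicates 1, 2 and 3. For the difference from border cells it gave 0 to 23 (DESeq2 2), and for that from cells beyond row 3, 0 to 231 (DESeq2 151).

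A replicate block, fitted with all 18 libraries, gave 1499 genes (681 and 818), and 13 for the difference from cells beyond row 3. Deviations of libraries of equal number in SI and LI centre cells correlated at 0.00998, 0.179 and 0.0331 over 12952 genes, so the numbers were not taken as pairs of SI and LI. These correlations do not cover libraries of one number at different GFP levels within a site.

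Signs that turned, all of genes not called, are given as ranges over leaving out 1 centre library. They ran from -3.36 to 0.15 for *Dclk1*, -0.098 to 0.31 for *Mcm6*, -0.0076 to 0.40 for *Uhrf1*, -2.03 to 0.11 for *Ptprc*, -0.95 to 0.27 for *Pdgfrb* and -2.28 to 0.16 for *Chga*, and turned to -0.0020 for *Tbx3* and to -0.048 and -0.012 for *Ephb4*. *Ascl2* ran from -0.34 to 0.10 and *Mki67* from -0.14 to 0.061, and *Trpm5* from -2.46 to 0.60. Without the SI libraries numbered 3, *Chga* was at 0.17, *Ascl2* at 0.12, *Mki67* at 0.082 and *Trpm5* at -2.44. *Mki67* turned to 0.013 with DESeq2 and with RLE factors, and *Trpm5* to -0.089 with library size only and -1.15 in the centre libraries only with the replicate block. The cause was not tested.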
